A study of Mus musculus with 20 samples.

Results

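The genes described here encode the molecules of the mouse major histocompatibility complex (MHC, named H2 in the mouse) and the proteins that load peptides onto them. They were taken by symbol from the 25219 genes of the deposited table: every name that starts with H2-, together with B2m, Tap1, Tap2, Tapbp, Psmb8, Psmb9, Psmb10, Nlrc5, Cd74 and Ciita. That gave 53 genes, of which 43 have an H2- name. They were split into 40 class I genes (32 with an H2- name) and 12 class II genes (10 with an H2- name). The remaining gene, H2-Ke6, lies among them on the chromosome but encodes an enzyme (also called Hsd17b8), and it is given apart. In the table's mm10 coordinates, 48 of the 53 genes lie on chromosome 17, between 33919478 and 37483529. The 10 class II genes with an H2- name occupy the stretch from 34092379 to 34344645.

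RNA was sequenced from inguinal white (iWAT) and interscapular brown (BAT) adipose tissue of male mice on a mixed (C57Bl/6) background, with 5 libraries in each of the 4 groups. Ai-α4KO mice carried floxed Igbp1 alleles, the gene for the phosphatase-binding protein α4, and the Adiponectin-CreERT2 transgene, a tamoxifen-dependent recombinase under a promoter active in adipocytes, so that the other cells of a depot are not targeted. Control mice carried the floxed alleles without the transgene, although the labels call them WT. All mice, Control included, received 5 tamoxifen injections of 100 mg/kg over 6 days from 2 months of age, and tissue was taken 1 week after recombination. Nothing in the labels says whether the iWAT and BAT libraries with the same number come from 1 mouse.

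Class I molecules, a heavy chain bound to β2-microglobulin (B2m), sit on nearly all nucleated cells and show peptides cut from the cell's own proteins by the proteasome and carried into the endoplasmic reticulum by the Tap1 and Tap2 transporter. Class II molecules, pairs of an α and a β chain assembled on the invariant chain Cd74, are mostly restricted to macrophages, dendritic cells and B cells and show peptides from engulfed material. Nlrc5 and Ciita are the transactivators of the class I and class II genes, respectively, and interferon γ induces both systems. In adipose tissue class II molecules are known best from its macrophages, and adipocytes have also been described to carry them.

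Igbp1 checked the labels. It stood at 68.9 ± 7.74 CPM (SD, n = 5; CPM is the read count scaled to a common library size) in the Control libraries of iWAT against 10.2 ± 0.435 CPM in the Ai-α4KO ones (log2 fold change -2.65), and at 96.5 ± 5.78 and 16.9 ± 4.49 in BAT (log2 fold change -2.5), without overlap in either depot. Library totals ran from 24023371 to 50384446 counts. The summed level of 6 brown adipocyte markers was 8191 to 12568 CPM in Control BAT and 132 to 965 CPM in Control iWAT, so the depots matched their labels. Control iWAT libraries 1 and 4 stood apart by B cell markers (578 and 230 summed CPM, against 7.73 to 9.64 in the other 3 Control iWAT libraries), and they were also the highest by T cell markers (329 and 367 summed CPM, against 37.5 to 61.1). The main values that rest on these libraries are given below with and without them. A gene was tested in a depot when it passed edgeR's default filter on low counts, which 41 of the 53 genes did in iWAT and 38 in BAT. The 12 genes tested in neither depot were class I genes with no or few reads in most libraries, 4 of them at 0 in every library. A gene is called changed at an adjusted p below 0.01 in edgeR's quasi-likelihood test and a change of at least 2-fold.

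Promoter letters are shown for 7 genes to let the shared regulatory elements be seen beside the values that follow. The windows are the 150 bases before the RefSeq transcription start on GRCm38 (mm10), 5′ to 3′ on the gene's strand. Capitals mark matches, on either strand, to an interferon response element (AANNGAAA), a κB element, the inverted CCAAT or Y box (ATTGG) and an X box of the class II type. Matches may overlap. B2m, H2-K1 and H2-D1 are the main class I components, H2-Q10 is one of the pair of class I genes called lower in Ai-α4KO libraries, and H2-Aa, H2-Eb1 and H2-DMb1 are class II genes that were higher.
B2m (chr2:122147537-122147686, + strand): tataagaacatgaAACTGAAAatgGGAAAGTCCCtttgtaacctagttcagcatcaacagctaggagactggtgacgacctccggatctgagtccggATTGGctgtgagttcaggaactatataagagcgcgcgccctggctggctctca
H2-K1 (chr17:34000334-34000483, - strand): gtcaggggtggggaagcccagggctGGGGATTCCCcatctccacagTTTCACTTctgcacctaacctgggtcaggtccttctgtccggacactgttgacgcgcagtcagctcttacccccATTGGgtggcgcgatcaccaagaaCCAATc
H2-D1 (chr17:35262944-35263093, + strand): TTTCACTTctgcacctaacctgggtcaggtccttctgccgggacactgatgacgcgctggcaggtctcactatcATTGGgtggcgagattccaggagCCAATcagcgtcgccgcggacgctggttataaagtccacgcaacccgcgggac
H2-Q10 (chr17:35469939-35470088, + strand): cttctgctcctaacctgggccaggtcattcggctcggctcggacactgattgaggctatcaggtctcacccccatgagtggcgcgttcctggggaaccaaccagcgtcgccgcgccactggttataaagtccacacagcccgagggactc
H2-Aa (chr17:34287824-34287973, - strand): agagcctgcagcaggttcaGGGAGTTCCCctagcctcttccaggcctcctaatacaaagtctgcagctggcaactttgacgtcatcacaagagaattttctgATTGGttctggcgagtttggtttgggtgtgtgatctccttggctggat
H2-Eb1 (chr17:34305717-34305866, + strand): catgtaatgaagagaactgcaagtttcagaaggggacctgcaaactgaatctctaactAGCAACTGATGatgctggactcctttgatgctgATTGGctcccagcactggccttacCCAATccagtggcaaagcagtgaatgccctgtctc
H2-DMb1 (chr17:34153041-34153190, + strand): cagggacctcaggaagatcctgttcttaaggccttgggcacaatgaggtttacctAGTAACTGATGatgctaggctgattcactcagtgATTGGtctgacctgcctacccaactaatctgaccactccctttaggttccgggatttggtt

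RefSeq windows were available for 37 of the 53 genes. In the 250 bases before the start, an interferon response element was found in 15 of 28 class I and 2 of 8 class II windows, against 21.3% of all 32851 windows. The κB element was in 6 of 28 class I and 2 of 8 class II windows (4.1% of all), and the Y box in 23 of 28 and 7 of 8 (33.8% of all). An X box and a Y box together were in 6 of 28 class I and 4 of 8 class II windows, against 1.18% of all windows. H2-Q10 had none of these letters in the 150 bases shown, which says nothing of the factors that bind there. Tap1 and Psmb9 are transcribed away from each other from starts 226 bases apart, so their windows overlap. A match is a description of the letters and not a test of binding.

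Similar H2 genes share reads, which limits what can be said of single genes. An expected count that is not a whole number shows that reads were divided between genes. The median share of such counts was 75.0% over the 28 class I genes with an H2- name and any count, 22.5% over the 10 class II genes and 5.0% over the 19569 genes of the table with any count. All counts of H2-D1, H2-Q1, H2-Q7, H2-Q8, H2-Q9, H2-T9 and H2-T22 were of this kind, against none (0.0%) for H2-Ob, H2-Eb2, H2-M9 and H2-M2. Some entries lie on the same bases: H2-L on H2-D1, H2-Q6 on H2-Q8, H2-Q7 on H2-Q9 and H2-T9 on H2-T22, and the count tool divided reads between the members of each pair. H2-Q6 was at 0 CPM in all 20 libraries once counts were rounded, while H2-Q8 received between 6.29 and 49.3 CPM. Values of these pairs are uncertain one by one, and their sums are given where a result turns on them. Among the 49 genes found in the GENCODE transcripts, none shared more than 6.0% of its 150-base stretches with another member there. Those not found were H2-L, H2-Q8, H2-Q9 and H2-T9, an entry of each pair above, so the sharing within these pairs is not part of that figure.

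Per unit of transcript length, B2m was the highest member in every group, at 2320 ± 195 FPKM (fragments per length and depth, as deposited; SD, n = 5) in Control iWAT, 4060 ± 458 in Ai-α4KO iWAT, 1010 ± 234 in Control BAT and 2890 ± 672 in Ai-α4KO BAT. H2-D1 (1010 ± 331 FPKM) and H2-K1 (795 ± 163 FPKM), the classical heavy chains, followed in Control iWAT and did not differ beyond their spread. In Control BAT they stood at 353 ± 71.4 and 423 ± 120 FPKM. H2-Aa, a class II α chain, was next at 463 ± 198 FPKM in Control iWAT and 105 ± 17.6 FPKM in Control BAT, and it came second to B2m in Ai-α4KO iWAT at 1300 ± 309 FPKM. Cd74 held 373 ± 168 FPKM in Control iWAT and 74.0 ± 17 FPKM in Control BAT. The transactivator Nlrc5 was far below B2m, H2-K1 and H2-D1, at 7.14 ± 2.03 FPKM in Control iWAT and 1.99 ± 0.663 FPKM in Control BAT. Lower class I genes, such as H2-K2 (5.71 ± 3.6 FPKM) and H2-T24 (5.5 ± 1.66 FPKM) in Control iWAT, stood near it.

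With α4 deleted in adipocytes, genes of both classes were called higher, in a smaller share of the class I than of the class II genes tested, and more of both were called in BAT than in iWAT. In iWAT the share of class I genes called higher was near that of all genes. Neither the difference between the classes nor that between the counts of the depots was tested. In iWAT, 4 of 28 class I genes tested were called higher (H2-M3, H2-T22, H2-T23 and H2-T24) and 2 lower (H2-M9 and H2-Q10), against 11.3% of all 14604 genes tested called higher and 10.7% called lower. In BAT, 10 of 26 class I genes were called higher (B2m, H2-K2, H2-M2, H2-M3, H2-Q4, H2-Q9, H2-T9, H2-T22, H2-T23 and Nlrc5) and 2 lower (again H2-M9 and H2-Q10), against 18.2% and 13.3% of all 14344 genes tested. With a B cell score as covariate, the class I genes called higher in BAT numbered 5 (B2m, H2-M2, H2-M3, H2-T22 and H2-T23), against 16.2% of all genes. B cell marker sums separated the genotypes in BAT, at 1.71 to 5.69 CPM in Control and 7.21 to 20.7 CPM in Ai-α4KO libraries. The covariate is therefore close to genotype there, which by itself widens the error of a genotype effect. The part of B cells was not tested. By the adjusted p alone, without the 2-fold limit, the class I genes above Control numbered 9 in iWAT and 16 in BAT (21.5% and 25.0% of all genes), and those below numbered 2 in each (18.8% and 24.8%). The median log2 fold change was 0.52 over the class I genes tested in iWAT and 0.98 in BAT, beside 0.015 and -0.032 over all genes tested. Class II genes were called higher in 6 of 12 tested in iWAT (H2-Aa, H2-Ab1, H2-Eb1, H2-DMa, H2-DMb1 and Cd74) and in 9 of 11 in BAT (the same 6 with H2-DMb2, H2-Ob and Ciita), and none was called lower in either depot. Their median log2 fold change was 1.23 in iWAT and 2.52 in BAT. Whole depots were measured, so more cells of a type and more RNA per cell cannot be told apart in any of these values.

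**Figure D1:**
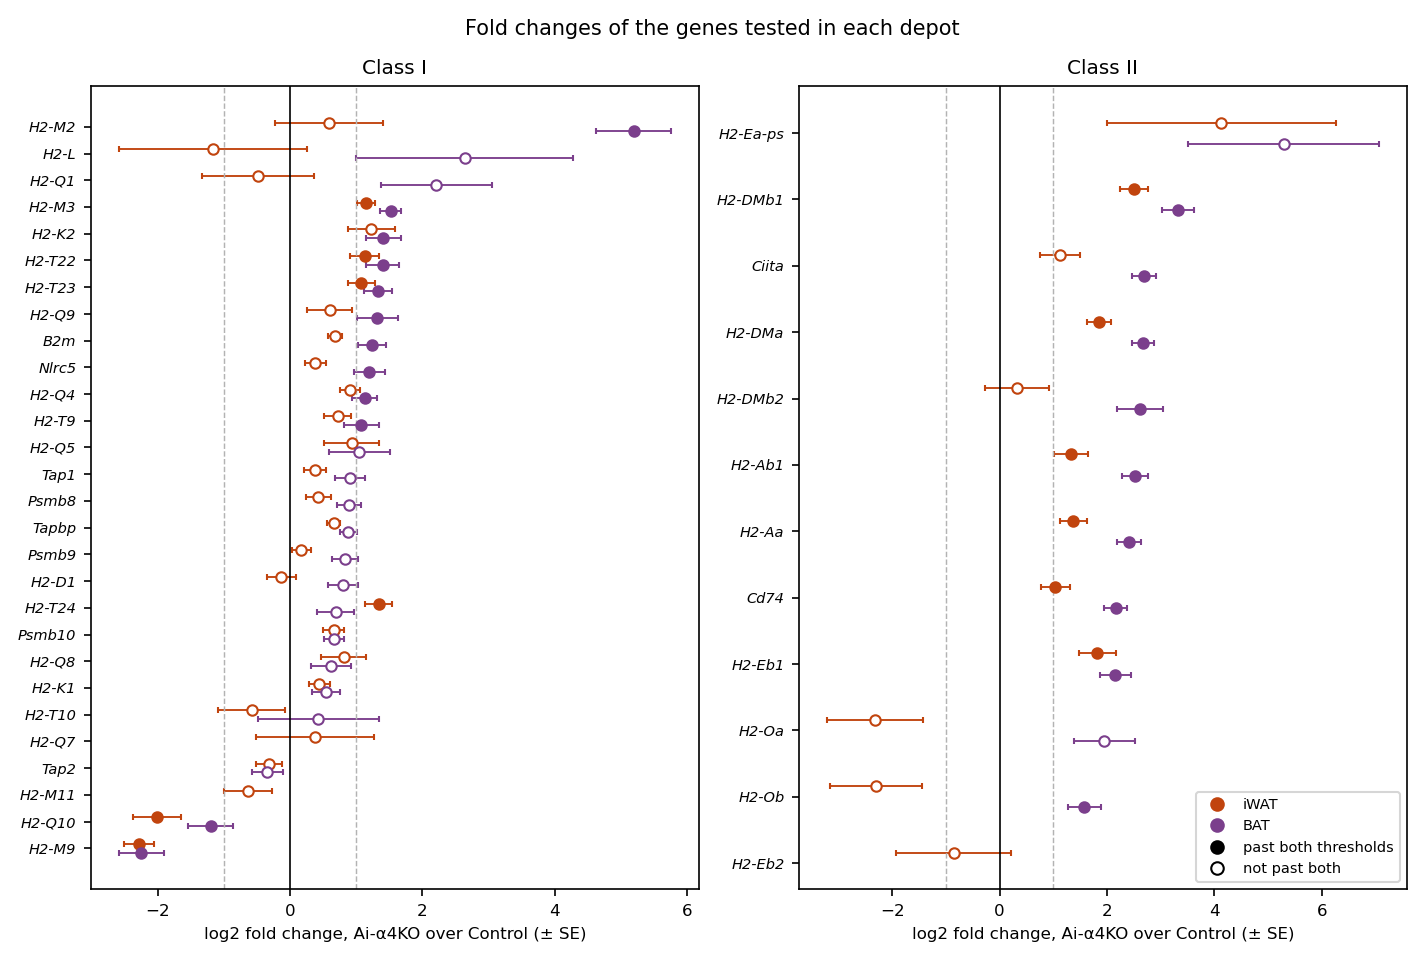
Log2 fold change of Ai-α4KO over Control (x axis, ± SE of the fit) for each class I gene (left) and class II gene (right) tested, in iWAT (orange) and BAT (purple), n = 5 libraries per group. Filled points passed both thresholds, open points did not, and dashed lines mark 2-fold; in BAT 9 of 11 class II genes are filled and lie right of the 2-fold line, while most class I genes lie closer to 0.

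The classical heavy chains did not pass the thresholds in either depot. H2-K1 stood at 1799, 1577, 1585, 1355 and 1116 CPM in Control iWAT libraries 1 to 5 and at 2481, 1593, 1842, 1905 and 1639 CPM in the Ai-α4KO iWAT libraries. In BAT its values were 1176, 1129, 542, 801 and 957 CPM in Control and 1677, 1271, 1225, 988 and 1497 CPM in Ai-α4KO libraries. The Ai-α4KO libraries lay toward the upper end, yet the groups overlapped in both depots. Its log2 fold change was 0.44 (SE 0.16, adjusted p = 0.0348) in iWAT and 0.54 (SE 0.21, adjusted p = 0.0418) in BAT.

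H2-D1 differed from H2-K1 in iWAT, where 2889, 1622, 1587, 1759 and 1990 CPM in Control faced 2439, 1090, 1649, 1659 and 1586 CPM in Ai-α4KO libraries. In BAT, 835, 937, 543, 895 and 841 CPM in Control faced 1500, 1078, 1244, 1007 and 2175 CPM in Ai-α4KO libraries. The iWAT groups overlapped almost wholly, and in BAT every Ai-α4KO library was above every Control library. The log2 fold change was -0.13 (SE 0.22, adjusted p = 0.643) in iWAT, where the value was 0.00093 without Control library 1, the highest of its group, and 0.8 (SE 0.22, adjusted p = 0.00793) in BAT, short of 2-fold. Scaled by library size without further normalization, the BAT value was 1.06 and passed 2-fold. By limma on log2(FPKM + 1) and on log2(FPKM + 0.1) it was 1.03 and passed as well.

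H2-K1 and H2-D1 made up most of the summed class I reads: between 69.8% and 89.6% of the CPM of all class I genes with an H2- name in every library. This sum does not depend on how reads were divided among those genes. It was 4047 ± 671 CPM in Control and 4363 ± 919 CPM in Ai-α4KO iWAT (SD, n = 5 each), and 2093 ± 316 and 3328 ± 722 CPM in BAT. In iWAT the ranges overlapped (3631 to 5232 against 3443 to 5884 CPM), and without Ai-α4KO library 1, the highest, the log2 ratio of the means turned from 0.11 to -0.023. In BAT they did not (1553 to 2342 against 2435 to 4230 CPM), with a log2 ratio of 0.67.

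B2m, the light chain of every class I molecule, was clear of its Control values in both depots. It held 2015, 2425, 2295, 2395 and 2239 CPM in Control iWAT and 2816, 3352, 3768, 3355 and 3593 CPM in Ai-α4KO iWAT. The BAT libraries held 1077, 1520, 818, 1277 and 1061 CPM in Control and 2754, 2538, 3406, 1783 and 3049 CPM in Ai-α4KO mice. No library of either genotype entered the range of the other. Its log2 fold change was 0.68 (SE 0.11, adjusted p = 0.000459) in iWAT, below 2-fold, and 1.24 (SE 0.21, adjusted p = 0.000242) in BAT. Of all class I genes, 9 of 28 in iWAT and 11 of 26 in BAT had every Ai-α4KO library above every Control library, beside 17.9% and 23.3% of all genes tested, and 1 and 2 genes had every library below (21.2% and 24.4%). The ratio of B2m to the sum of H2-K1 and H2-D1 in FPKM was 0.852 to 1.52 in Control and 1.13 to 2.45 in Ai-α4KO iWAT, and 1.05 to 1.49 and 1.64 to 2.72 in BAT.

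Among the nonclassical class I genes, whose products are less variable and less abundant, several rose in both depots. H2-M3, which presents N-formylated peptides, stood at 19.7, 13.5, 14, 15 and 12.1 CPM in Control iWAT and at 30.2, 29.7, 34.8, 29.1 and 30.6 CPM in Ai-α4KO iWAT. In BAT it held 6.82, 6.22, 5.35, 8.23 and 7.4 CPM in Control and 20.7, 22.4, 17.9, 14.6 and 21.8 CPM in Ai-α4KO libraries. The groups did not overlap in either depot, and the spread within a group was small. The log2 fold change was 1.15 (SE 0.14, adjusted p = 5.39e-05) in iWAT and 1.52 (SE 0.16, adjusted p = 6.18e-06) in BAT.

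H2-T23, which encodes Qa-1, the ligand of CD94/NKG2 receptors, rose by a log2 fold change of 1.08 (adjusted p = 0.000934) in iWAT and 1.33 (adjusted p = 0.00017) in BAT. Without Control iWAT libraries 1 and 4 its iWAT change was 0.93 (adjusted p = 0.00801), and that of H2-T22 was 0.79 (adjusted p = 0.00403) in place of 1.13, both short of 2-fold. H2-T24 ran from 8.41 to 17.7 CPM in Control iWAT and from 25.4 to 38.4 CPM in Ai-α4KO iWAT (log2 fold change 1.34, SE 0.2, adjusted p = 0.000209). Its BAT values were 14.2, 15.2, 8.73, 14.5 and 23.0 CPM in Control and 26.7, 40.5, 17.3, 17 and 20.7 CPM in Ai-α4KO libraries, which overlapped (log2 fold change 0.69, adjusted p = 0.0443; 0.44, adjusted p = 0.131, without Ai-α4KO library 2). H2-T24 was the only class I gene called higher in iWAT alone, and the interaction of genotype and depot was not past the threshold for it (-0.61, SE 0.36, adjusted p = 0.259). It overlaps an antisense transcript, A930015D03Rik, along its whole length. The pair H2-T9 and H2-T22 summed to 108 to 205 CPM in Control and 214 to 296 CPM in Ai-α4KO iWAT, and to 60.9 to 137 and 140 to 279 CPM in BAT, again without overlap. The Control libraries were uneven, with 204 and 205 CPM in iWAT libraries 2 and 3 against 108, 117 and 125 CPM in libraries 1, 4 and 5, and 105 and 137 CPM in BAT libraries 3 and 4 against 60.9 to 88.1 CPM in libraries 1, 2 and 5. Counted as 1 gene, an alternative added after the data were seen, the pair had a log2 fold change of 0.86 (adjusted p = 0.00312) in iWAT, below 2-fold, and 1.20 (adjusted p = 0.00117) in BAT.

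H2-M2 had the largest change among class I genes, on very few reads. In BAT it held 0.094, 0.0389, 0, 0 and 0.0832 CPM in Control, at most 3 counts in any of these libraries, and 1.22, 2.61, 1.72, 1.0 and 1.88 CPM in Ai-α4KO libraries. Set against a floor of 3 counts per library it was at least 15.7-fold higher. It entered the BAT test through its Ai-α4KO libraries alone, so it had to differ there: no p is given, and it is 1 of the 10 class I genes counted as higher in BAT. In iWAT its Control libraries 1 and 4 were at 2.08 and 2.23 CPM and the other 3 between 0.0306 and 0.231 CPM, against 0.979 to 2.13 CPM in Ai-α4KO libraries, and the log2 fold change was 0.59 (adjusted p = 0.566). Without those Control libraries it too entered the iWAT test through its Ai-α4KO libraries alone.

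Among the peptide supply genes Tap1, Tap2, Tapbp, Psmb8, Psmb9 and Psmb10, none was called in either depot at the main settings. Tap1, a chain of the peptide transporter, stood at 85.7, 51.4, 63.7, 70.9 and 51.0 CPM in Control and 93.0, 62.3, 86.0, 73.0 and 78.3 CPM in Ai-α4KO iWAT, and at 17.5, 18.2, 19.1, 36.5 and 36.9 against 55.9, 44.5, 52.2, 37.9 and 49.8 CPM in BAT. The iWAT groups overlapped (log2 fold change 0.38, SE 0.17, adjusted p = 0.0741), and the BAT groups did not (0.91, SE 0.23, adjusted p = 0.00452), short of 2-fold. Without Control BAT library 4 or 5, the highest Control values, or Ai-α4KO BAT library 4, the lowest, the BAT change reached 1.03 to 1.07 and passed. It also passed by library size only (1.17) and by limma on log2(FPKM + 1) (1.12) and log2(FPKM + 0.1) (1.24). The other chain, Tap2, ran from 72.1 to 128 CPM in Control and from 62.3 to 106 CPM in Ai-α4KO iWAT, with log2 fold changes of -0.32 (adjusted p = 0.188) in iWAT and -0.34 (adjusted p = 0.218) in BAT. Tapbp (tapasin), which bridges the transporter and the class I molecule, was higher at an adjusted p below 0.01 in both depots but short of 2-fold, with log2 fold changes of 0.66 and 0.88.

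The subunits of the immunoproteasome replace those of the standard proteasome in immune cells and under interferon. Psmb8 held 123, 66.9, 64.4, 95.1 and 69.7 CPM in Control and 131, 106, 107, 93.6 and 92.0 CPM in Ai-α4KO iWAT, and 35.6, 36, 26.8, 51.1 and 49.9 against 87.6, 75.4, 66.7, 54.4 and 85.3 CPM in BAT. Psmb9 held 47.3, 31.8, 35.6, 47.9 and 40.3 CPM in Control and 49.2, 46.3, 42.2, 37.4 and 37.4 CPM in Ai-α4KO iWAT, and 16.6, 14.5, 13.9, 23.3 and 26 against 34.7, 31.7, 34.9, 25.3 and 40.6 CPM in BAT. For both genes the iWAT ranges overlapped, and in BAT Psmb8 separated while Psmb9 overlapped through Ai-α4KO library 4. Their log2 fold changes were 0.43 (adjusted p = 0.0829) and 0.17 (adjusted p = 0.336) in iWAT and 0.89 (adjusted p = 0.00122) and 0.83 (adjusted p = 0.0027) in BAT. In BAT both passed the thresholds by library size only (1.16 and 1.09) and by limma on log2(FPKM + 1) (1.15 and 1.08) and log2(FPKM + 0.1) (1.18 and 1.13). Psmb8 passed as well without Ai-α4KO library 4 (1.04). Psmb10 was at 0.66 and 0.67, with adjusted p of 0.00444 and 0.00224. The 3 standard catalytic subunits Psmb5, Psmb6 and Psmb7 were called in neither depot, with median log2 fold changes of -0.15 and -0.31. The FPKM ratio of Psmb8 to Psmb5, the subunit it replaces, ran from 0.119 to 0.246 in Control and from 0.339 to 0.437 in Ai-α4KO BAT, and from 0.307 to 0.669 and 0.632 to 0.897 in iWAT.

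Nlrc5 stood at 64.0, 40.9, 41.7, 69.3 and 64.0 CPM in Control and 63.9, 73.6, 69.7, 69.0 and 63.2 CPM in Ai-α4KO iWAT, which overlapped (log2 fold change 0.38, SE 0.16, adjusted p = 0.0657). In BAT it held 18, 15.6, 11.9, 18.3 and 27.7 CPM in Control and 58.1, 50.1, 36.5, 26.5 and 38.4 CPM in Ai-α4KO libraries. Only Ai-α4KO library 4 fell below the highest Control value there, and the change was called (log2 fold change 1.2, SE 0.24, adjusted p = 0.00089). With the B cell score as covariate, whose marker sums themselves separated the genotypes in BAT, the call was lost (1.02, adjusted p = 0.0338).

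**Figure D2:**
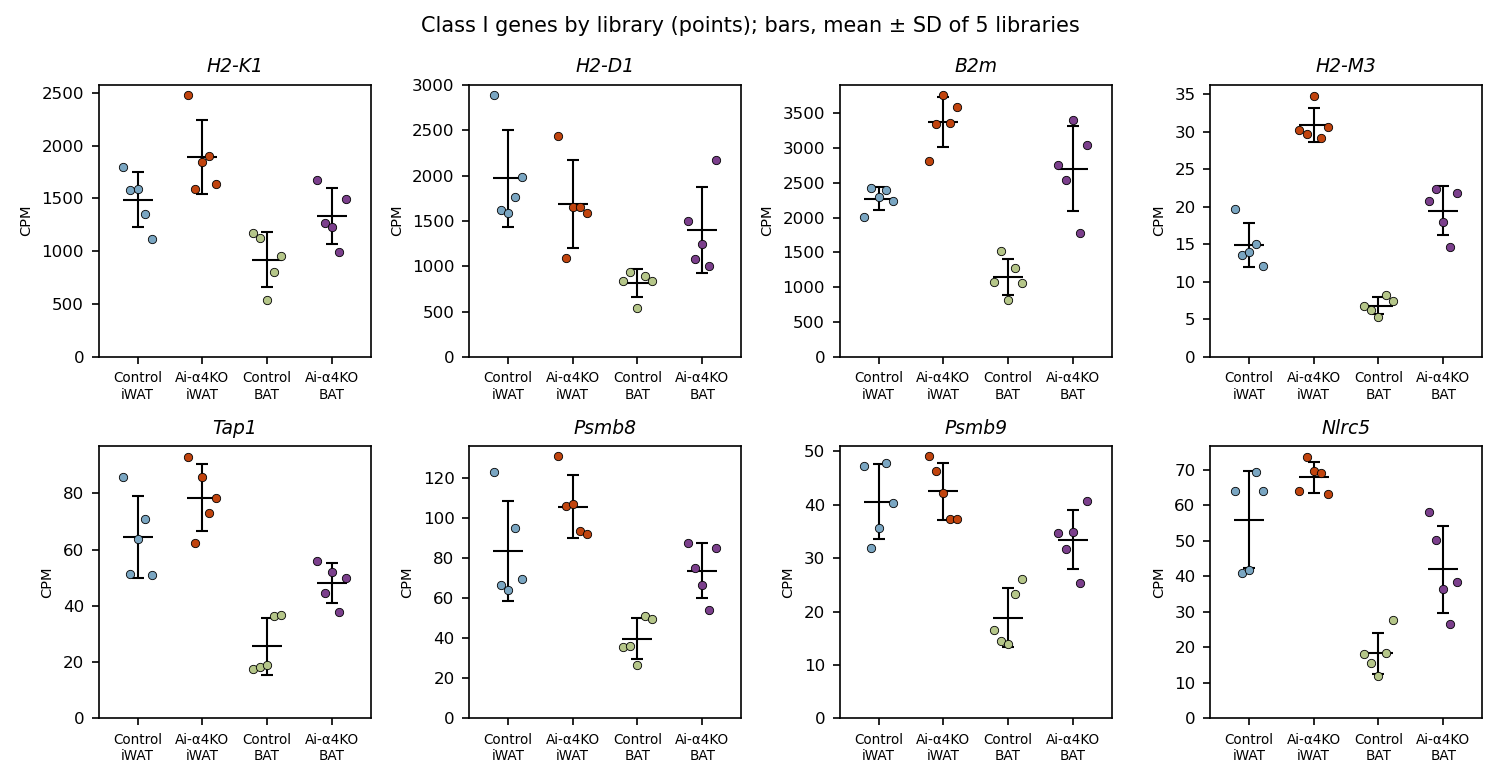
CPM (y axes, from 0) of 8 class I genes in the 5 libraries of each group (x axis), with points for libraries and bars for mean ± SD. B2m and H2-M3 separate the genotypes in both depots, whereas H2-K1, Tap1, Psmb9 and Nlrc5 overlap in iWAT, and H2-D1 separates only in BAT.

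A pair of class I genes went the other way. H2-Q10, which encodes a secreted class I protein best known from liver, held 43.3, 185, 195, 139 and 167 CPM in Control and 40.0, 30.1, 24.7, 49.6 and 24.1 CPM in Ai-α4KO iWAT. Control library 1 lay within the Ai-α4KO range and the other 4 far above it (log2 fold change -2.01, SE 0.36, adjusted p = 0.000654). In BAT the values were 68.2, 76.5, 254, 112 and 74.3 CPM in Control and 55.5, 48.2, 53.9, 59.9 and 36.8 CPM in Ai-α4KO libraries. Those groups did not overlap, but the size rests on Control library 3: the log2 fold change was -1.2 (SE 0.34, adjusted p = 0.00861) with it and -0.70 without it. The call was also lost without Control library 4 or without any 1 of the Ai-α4KO libraries (adjusted p up to 0.0232). H2-M9, a little-studied gene of the M region, ran from 1.82 to 2.69 CPM in Control and 0.337 to 0.515 CPM in Ai-α4KO iWAT, and from 0.915 to 2.26 and 0.19 to 0.425 CPM in BAT. Its groups did not overlap in either depot. The log2 fold change was -2.28 (SE 0.23, adjusted p = 1.76e-05) in iWAT and -2.25 (SE 0.34) in BAT. In BAT H2-M9 passed the low-count filter only with its Control libraries, so a fall was favoured in advance and no p is given. It is 1 of the 2 class I genes counted as lower in BAT, a count that was 0 with at least 10 counts in every library. H2-Ke6, the enzyme gene with an MHC name only, fell from 58.9 ± 9.9 to 19.9 ± 4.16 CPM in iWAT and from 132 ± 27.8 to 33.6 ± 6.98 CPM in BAT (SD, n = 5; log2 fold changes -1.47 and -1.96). Of its 150-base stretches, 54.5% are shared with the overlapping transcript Gm20427.

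The α and β chains of the A molecule and the β chain of the E molecule rose in both depots. H2-Aa, the α chain of the A molecule, stood at 919, 477, 459, 503 and 423 CPM in Control and 1008, 988, 1558, 1641 and 1525 CPM in Ai-α4KO iWAT, and at 136, 170, 117, 172 and 151 against 652, 523, 794, 745 and 1210 CPM in BAT. Every Ai-α4KO library was above every Control library in both depots, although Control iWAT library 1 came near. The log2 fold change was 1.37 (SE 0.25, adjusted p = 0.000827) in iWAT and 2.41 (SE 0.22, adjusted p = 2.19e-06) in BAT. H2-Ab1, its β chain, held 485, 205, 225, 256 and 173 CPM in Control and 570, 324, 715, 733 and 831 CPM in Ai-α4KO iWAT, and 49.2, 57.7, 58.5, 80.3 and 58.0 against 279, 208, 354, 328 and 561 CPM in BAT. Here Control iWAT library 1 exceeded Ai-α4KO library 2, and the BAT groups stayed apart (log2 fold changes 1.33, SE 0.32, adjusted p = 0.00445, and 2.52, SE 0.25, adjusted p = 3.98e-06). The iWAT call is close to the threshold: leaving out any of 7 libraries, Control 2, 3, 4 or 5 or Ai-α4KO 3, 4 or 5, gave an adjusted p between 0.0108 and 0.0136.

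H2-Eb1, the β chain of the E molecule, ran at 239, 246, 273, 112 and 95.5 CPM in Control and 538, 324, 707, 803 and 794 CPM in Ai-α4KO iWAT, and at 43.5, 46.5, 79.1, 109 and 39.8 against 293, 184, 338, 312 and 272 CPM in BAT. No libraries overlapped between genotypes (log2 fold changes 1.82, SE 0.35, adjusted p = 0.00103, and 2.15, SE 0.29, adjusted p = 4.96e-05). Cd74, the invariant chain, stood at 1001, 497, 490, 539 and 436 CPM in Control and 1056, 684, 1151, 1313 and 1482 CPM in Ai-α4KO iWAT, and at 114, 123, 128, 188 and 141 against 541, 511, 544, 547 and 941 CPM in BAT. Control iWAT library 1 was again inside the Ai-α4KO range. The log2 fold change was 1.04 (SE 0.27, adjusted p = 0.00677) in iWAT and 2.16 (SE 0.21, adjusted p = 2.84e-06) in BAT. That iWAT call was lost when any of 7 libraries was left out (adjusted p 0.0154 to 0.0203 without Control 2, 3, 4 or 5 or Ai-α4KO 3, 4 or 5) and under upper-quartile scaling (0.94, adjusted p = 0.0117).

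Among the class II genes called in both depots, the largest changes were those of the DM molecule, which exchanges the invariant chain remnant for peptide. H2-DMb1 held 30.8, 30.7, 40.6, 23.7 and 20.4 CPM in Control and 135, 84.0, 178, 181 and 198 CPM in Ai-α4KO iWAT, and 5.17, 4.94, 7.04, 12.5 and 5.62 against 68.8, 41.7, 89.1, 72.1 and 79.5 CPM in BAT. H2-DMa held 59.1, 34.4, 42.8, 44.4 and 34.9 CPM in Control and 136, 86.4, 156, 163 and 186 CPM in Ai-α4KO iWAT, and 7.76, 8.79, 7.23, 13.9 and 10.4 against 61.9, 46.6, 60.8, 60.4 and 75.0 CPM in BAT. Both genes separated the genotypes in both depots, with Ai-α4KO library 2 the lowest of its group each time. For H2-DMb1 the log2 fold change was 2.51 (SE 0.26, adjusted p = 1.66e-05) in iWAT and 3.32 (SE 0.29, adjusted p = 1.6e-06) in BAT, and for H2-DMa 1.85 (SE 0.22, adjusted p = 4.36e-05) and 2.67 (SE 0.2, adjusted p = 3.76e-07). H2-DMb2, the other β chain, was called in BAT (2.62, adjusted p = 0.000209) and not in iWAT (0.32, adjusted p = 0.678), where Control libraries 1 and 4 held 64.3 and 28.2 CPM and the other 3 between 3.93 and 11.5 CPM. In all, 4 of 12 class II genes in iWAT and 9 of 11 in BAT had no overlap between genotypes, beside the 17.9% and 23.3% of all genes.

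H2-Oa and H2-Ob form the DO molecule, which restrains DM and is best known from B cells. H2-Ob stood at 52.3, 2.71, 2.62, 24.9 and 1.96 CPM in Control and 2.67, 3.16, 2.84, 3.14 and 4.4 CPM in Ai-α4KO iWAT, and at 0.94, 0.817, 0.704, 1.35 and 0.416 against 2.56, 2.31, 2.9, 1.72 and 3.22 CPM in BAT. H2-Oa likewise held 21.5 and 8.55 CPM in Control iWAT libraries 1 and 4, and between 0.674 and 1.42 CPM in the other 8 iWAT libraries. The high values were those of the libraries with high B cell markers. The iWAT log2 fold changes were -2.3 (adjusted p = 0.0411) for H2-Ob and -2.32 (adjusted p = 0.047) for H2-Oa, and without Control libraries 1 and 4 they were 0.46 (adjusted p = 0.148) and 0.58 (adjusted p = 0.125). In BAT, H2-Ob was called higher (1.58, SE 0.31, adjusted p = 0.000845) and H2-Oa was not (1.95, adjusted p = 0.0105).

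Ciita, the switch of the class II genes, stood at 24.3, 9.69, 6.94, 9.37 and 8.05 CPM in Control and 17.8, 15.2, 23.8, 38.1 and 25.5 CPM in Ai-α4KO iWAT. Its BAT values were 1.27, 2.06, 1.08, 2.23 and 2.08 CPM in Control and 11.6, 10.9, 9.66, 10.6 and 13.8 CPM in Ai-α4KO mice. The BAT groups were far apart (log2 fold change 2.69, SE 0.23, adjusted p = 1.03e-06). In iWAT the change missed the threshold (1.13, SE 0.37, adjusted p = 0.0222), with Control library 1 inside the Ai-α4KO range, and without that library it was 1.55 (adjusted p = 0.000544). It passed as well by DESeq2 (1.11, adjusted p = 0.00339), by limma on log2(FPKM + 0.1) (1.31, adjusted p = 0.00857), with the B cell score as covariate (1.64, adjusted p = 0.00224) and in 1 fit of all libraries (1.14, adjusted p = 0.00456). Leaving out Control iWAT libraries 1 and 4 together brought the class II genes called in iWAT from 6 to 9, the added ones being Ciita, H2-DMb2 and H2-Eb2, and the class I genes from 4 to 5, against 11.9% of all 14822 genes then called higher. H2-Eb2 (0.0771 to 0.29 CPM in the remaining Control libraries, 0.956 to 2.55 CPM in Ai-α4KO ones) and H2-M2 entered that test through the Ai-α4KO libraries alone and so had to differ. Of the class I genes, H2-K2, H2-M2 and H2-Q4 were gained, H2-M3 and H2-T24 stayed, and H2-T22 and H2-T23 were lost.

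**Figure D3:**
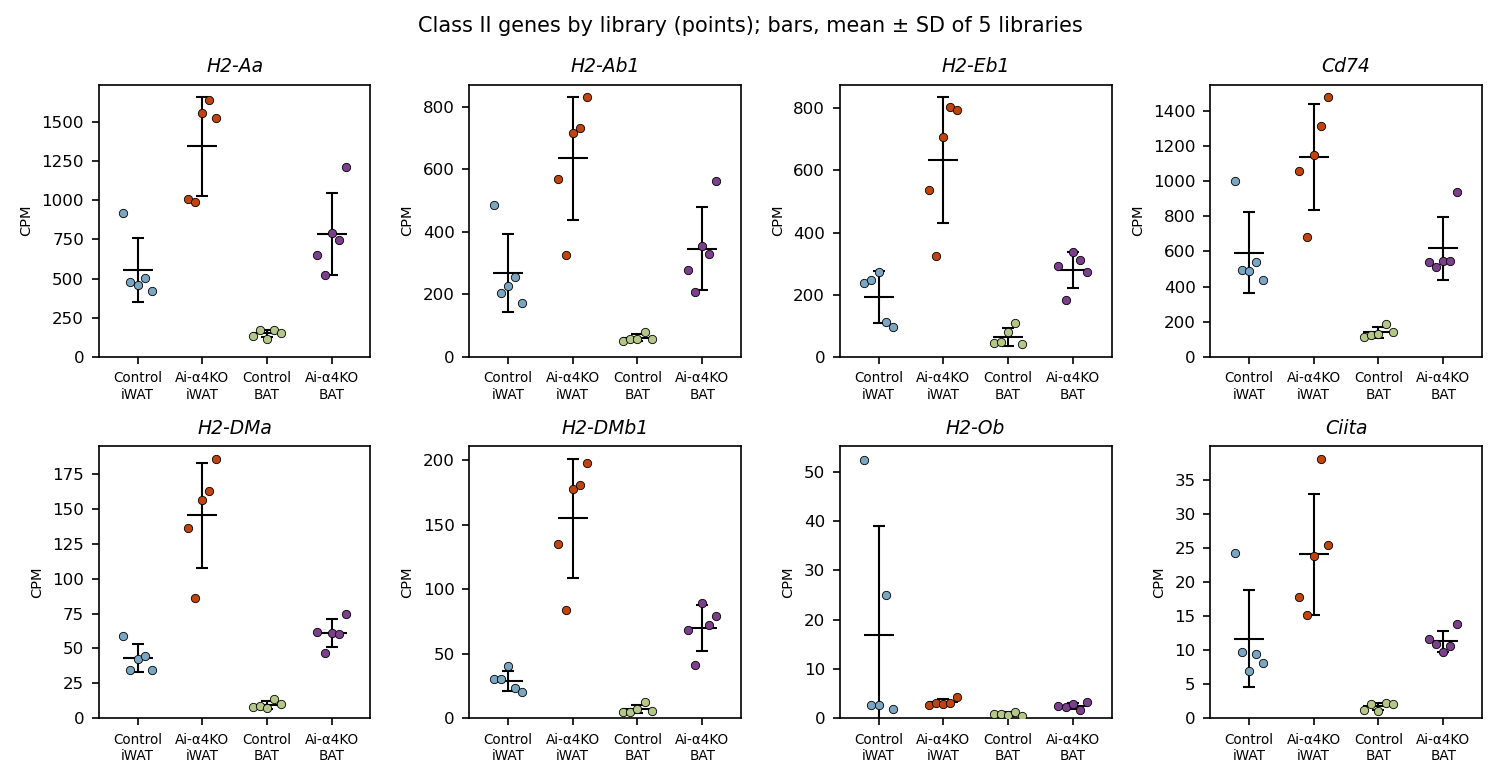
CPM (y axes, from 0) of 8 class II genes in the 5 libraries of each group (x axis), with points for libraries and bars for mean ± SD. Ai-α4KO libraries are above all Control libraries of their depot for H2-Aa, H2-Eb1, H2-DMa and H2-DMb1, and the H2-Ob panel shows Control iWAT libraries 1 and 4 at 52.3 and 24.9 CPM.

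Whether a change differed between depots was tested as the interaction of genotype and depot over all 20 libraries. No member passed an adjusted p below 0.01 in edgeR's quasi-likelihood test, against 4.86% of all 15230 genes. At an unadjusted p below 0.05 there were 7 of 28 class I and 10 of 12 class II genes, against 31% of all genes. The interaction was above 0 for all 12 class II and 25 of 28 class I genes, beside 7678 of the 15230 genes tested. A value above 0 means a more positive log2 fold change in BAT, which for H2-Q10 (0.85) is a smaller fall. The DESeq2 Wald test called 8 members at an adjusted p below 0.01, against 10.8% of the 15204 genes to which it gave one: H2-M2 and H2-Q7 of class I, and Cd74, Ciita, H2-Aa, H2-Eb2, H2-Oa and H2-Ob of class II. The edgeR interaction was 1.16 (SE 0.35, adjusted p = 0.0309) for Cd74, 1.06 (SE 0.34, adjusted p = 0.0434) for H2-Aa and 0.37 (SE 0.47, adjusted p = 0.625) for H2-Eb1. For H2-Ob it was 3.91 (SE 0.99, adjusted p = 0.0137), and 1.19 (adjusted p = 0.0671) without Control iWAT libraries 1 and 4. Leaving out those libraries took it from 4.3 to 1.44 (adjusted p = 0.22) for H2-Oa. The values of Ciita (1.59 to 1.17), Cd74 (1.16 to 0.93) and H2-Aa (1.06 to 0.87) moved less, with adjusted p between 0.0436 and 0.0888. No size is given for H2-Eb2, H2-M2 and H2-Q7, which had at most 3 counts in any Control BAT library. Their adjusted p without Control iWAT libraries 1 and 4 was 0.538, 0.183 and 0.0556. DESeq2 was not run without these libraries.

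In Control mice most members were lower in BAT than in iWAT. Of class I, 11 of 28 genes were called lower in BAT and 0 higher, and of class II 11 of 12 lower and 0 higher, against 15.4% of all 15230 genes called lower and 7.34% higher. The median log2 difference, BAT over iWAT, was -1.02 for class I and -2.19 for class II, beside -0.0034 over all genes tested. Nlrc5 (-1.62), Tap1 (-1.35), H2-D1 (-1.29), Psmb9 (-1.12) and Psmb8 (-1.09) were called, and B2m (-0.98) and H2-K1 (-0.7) were past the adjusted p but short of 2-fold. The class II differences called ran from -1.61 for H2-Eb1 to -4.58 for H2-Oa, apart from H2-Eb2. That gene had at most 3 counts in any Control BAT library and was at least 28.8-fold lower there against a floor of 3 counts per library, a value resting on Control iWAT libraries 1 and 4 (10.8 and 4.2 CPM). The differences of H2-Oa, H2-Ob (-4.34) and H2-DMb2 (-3.41) rest in part on the same libraries, at 21.5 and 8.55, 52.3 and 24.9, and 64.3 and 28.2 CPM. The other Control iWAT libraries held at most 1.04, 2.71 and 11.5 CPM of these genes. Without those libraries 8 class I and 9 class II genes were called lower in BAT, against 12.5% of all 15466 genes. Markers of immune cells moved with this depot difference: 8 of 8 macrophage, 6 of 8 dendritic cell, 8 of 8 T cell, 4 of 6 NK cell and 9 of 9 B cell markers tested were called lower in Control BAT (median log2 differences -2.43, -2.59, -4.79, -2.01 and -5.95), and 8, 4, 1, 1 and 3 of them without Control iWAT libraries 1 and 4. The part of these cells in the depot difference was not tested. H2-Q7 was at 0 CPM in all Control BAT libraries and between 1.31 and 4.73 CPM in Control iWAT, but its sum with H2-Q9 was 7.19 to 16.4 CPM in Control BAT and 13.4 to 47.1 CPM in Control iWAT.

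In Ai-α4KO mice the gap between depots was smaller: 1 class I gene (H2-Q8) and 4 class II genes (Ciita, H2-DMa, H2-DMb1 and H2-Eb1) were called lower in BAT, and 0 higher, against 4.09% of all genes called lower and 8.54% higher, with medians of -0.48 and -0.99. The class I call was lost when any of 5 single libraries was left out (Ai-α4KO iWAT 1 or BAT 2, 3, 4 or 5). The class II count was 1 when any of 4 single libraries was left out (Ai-α4KO iWAT 3, 4 or 5 or BAT 2). The change of this gap with genotype is the same quantity as the interaction above. The summed CPM of the 10 H2 class II genes was 1142 ± 433 in Control iWAT, 2990 ± 704 in Ai-α4KO iWAT, 294 ± 56.7 in Control BAT and 1583 ± 415 in Ai-α4KO BAT (SD, n = 5), so that Ai-α4KO BAT reached the range of Control iWAT, 762 to 1889 CPM.

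Genes that work beside these molecules were counted in lists chosen by function, to be read beside the 11.3% of all genes called higher and 10.7% lower in iWAT and the 18.2% and 13.3% in BAT. Of 9 genes of the class II compartment, 5 were called higher in iWAT and 6 in BAT, and 0 lower. They were led by Ctss, the cathepsin that trims the invariant chain (log2 fold change 2.92, SE 0.29, in iWAT and 5.22, SE 0.27, in BAT), Ifi30, the lysosomal thiol reductase (2.76 and 3.84), and Lgmn, the asparagine endopeptidase (2.37 and 3.21). March1, the ligase that removes class II molecules from the surface, rose as well (1.77 and 3.44). Of the 7 factors that bind the X and Y boxes, 0 were called higher in either depot and 1 lower in BAT (Rfxank, -1.03, SE 0.17). With so few genes, these counts do not set the factors apart from all genes. Of 11 genes of class I loading and trimming, 2 rose in each depot, a share near that of all genes, namely Pdia3 of the loading complex (1.13 and 1.29) and Ubd, an interferon-inducible ubiquitin-like protein (3.59 and 4.81).

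Costimulatory ligands, which T cells read together with the MHC molecule, were called higher in 4 of 7 genes in iWAT and 6 in BAT, with 1 lower in BAT, beside the same 11.3% and 18.2% of all genes. Cd80 (2.59 and 4.31), Cd86 (1.74 and 3.02), Cd40 (1.8 and 3.11) and Pdcd1lg2 (3.78 and 4.47) were the 4 called in both. The summed level of the 7 genes separated the genotypes in iWAT, at 58.9 to 94.5 CPM in Control and 121 to 177 CPM in Ai-α4KO libraries. In BAT the sums overlapped (82.7 to 131 against 83.5 to 151 CPM). Of 12 genes of the interferon γ pathway tested, 3 were called higher in iWAT and 5 in BAT (again beside 11.3% and 18.2% of all genes), led by the chemokine Cxcl10 (7.38, SE 0.25, in iWAT and 4.61, SE 0.56, in BAT). Of the class I-like genes outside the H2 names, 3 of 9 tested were called higher and 2 lower in iWAT, and 4 of 10 higher and 1 lower in BAT. Their summed level was 931 to 1355 CPM in Control and 626 to 883 CPM in Ai-α4KO iWAT, and 569 to 853 and 405 to 600 CPM in BAT. Raet1e, Raet1d and Ulbp1, ligands of the NK receptor NKG2D, rose in both depots (3.0, 2.52 and 2.03 in iWAT, 4.02, 3.04 and 1.56 in BAT), and Cd1d1, which presents lipids, fell (-1.67 in iWAT and -1.21 in BAT).

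Markers of macrophages moved with the class II genes in both depots, and those of dendritic cells and B cells were called higher in more genes in BAT than in iWAT. All 8 macrophage markers rose in BAT and 7 of 8 in iWAT, with medians of 3.99 and 2.3, and their summed level was 564 to 1115 CPM in Control and 2664 to 4070 CPM in Ai-α4KO iWAT, and 111 to 259 and 1382 to 2762 CPM in BAT. Dendritic cell markers were called higher in 3 of 8 genes in iWAT and 7 of 8 in BAT, with 1 lower in BAT (summed level 175 to 276 against 416 to 578 CPM, and 25.4 to 46.2 against 152 to 287 CPM). T cell markers were called higher in 0 of 8 in iWAT and 6 of 8 in BAT, NK cell markers in 3 and 5 of 6, and B cell markers in 0 of 9 (1 lower) and 3 of 5 tested. Without Control iWAT libraries 1 and 4, 1 of 8 T cell, 5 of 6 NK cell, 2 of 9 B cell, 3 of 8 dendritic cell and 6 of 8 macrophage markers were called higher and 0 lower. The other 3 Control iWAT libraries were below every Ai-α4KO iWAT library both for summed T cell markers (37.5 to 61.1 against 71.5 to 97.5 CPM) and for summed B cell markers (7.73 to 9.64 against 10.5 to 18 CPM). The adipocyte markers fell in 7 of 8 genes in iWAT and 6 of 8 in BAT, the brown adipocyte markers in 5 and 2 of 6, and the endothelial markers in 2 and 4 of 6 (summed endothelial level 410 to 532 against 222 to 269 CPM in iWAT, and 727 to 1044 against 297 to 391 CPM in BAT). Set against Emr1, the macrophage antigen F4/80, Cd74 was lower and not higher in Ai-α4KO mice: the FPKM ratio of Cd74 to Emr1 was 11.5 to 26.7 in Control and 5.42 to 10.2 in Ai-α4KO iWAT, and 15.2 to 26.7 and 4.26 to 10.4 in BAT. The part of these cells in the changes of class I and class II genes was not tested.

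**Figure D4:**
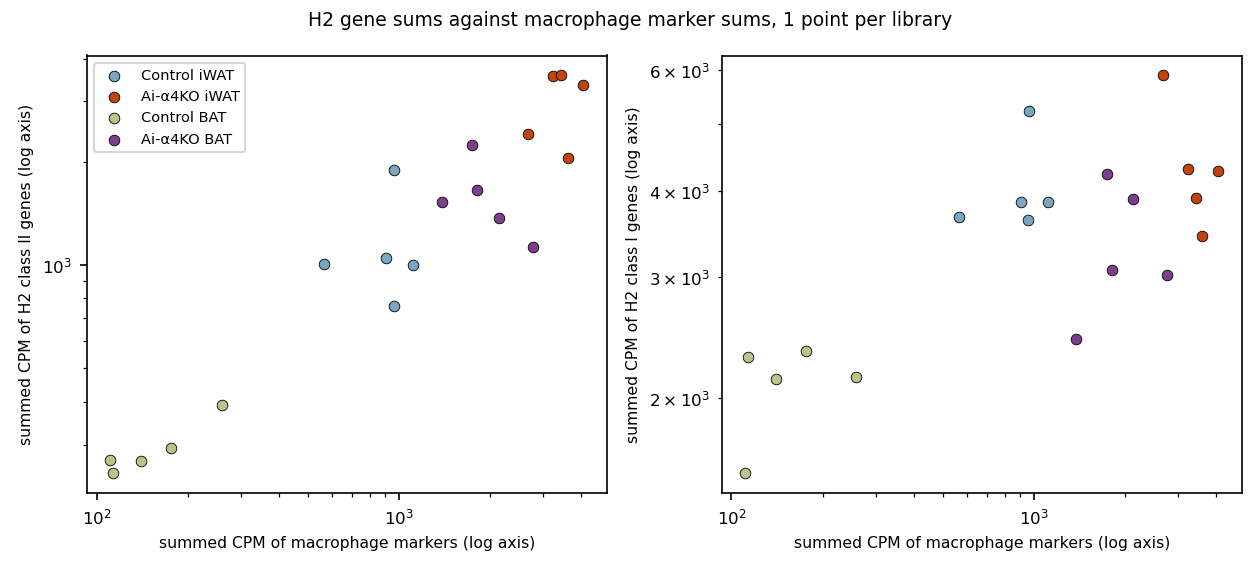
Summed CPM of the H2 class II genes (left) and H2 class I genes (right) against the summed CPM of 8 macrophage markers (x axes), 1 point per library on log axes, coloured by group. Class II sums run from 247 to 3572 CPM and class I sums from 1553 to 5884 CPM over the 20 libraries, and in the left panel the Ai-α4KO libraries of each depot lie above and to the right of the Control libraries of that depot.

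Skeletal muscle markers were also higher in Ai-α4KO BAT (12744 to 44266 summed CPM, against 971 to 9432 in Control; 6 of 8 called). In iWAT, where 0 of 8 were called, Control library 4 (7351 summed CPM) and Ai-α4KO library 1 (4084) stood far above the other 8 libraries (5.09 to 192 CPM). When the mean level of these markers was entered as a covariate, an alternative added after the data were seen, 9 class II and 7 class I genes were called higher in BAT, against 11.9% of all genes in that fit. The 7 include H2-M2, and the calls of H2-Q9, H2-T9 and H2-T22 were lost. The muscle marker sums too separated the genotypes in BAT, which by itself widens the error of a genotype effect.

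Several H2 genes differed between libraries of 1 group far more than the genotypes differed. H2-Ea-ps, a class II α chain entry with a pseudogene's symbol that the deposited table lists as a protein gene, stood at 215 CPM in Ai-α4KO iWAT library 2 and 109 CPM in Ai-α4KO BAT library 2, and at 8.15 CPM or less in the other 18 libraries, 5 of them at 0. In the same libraries H2-Q2 was at 4.09 and 6.41 CPM, against at most 0.402 CPM elsewhere, and H2-L was at 3.35 and 35.2 CPM, of which only the BAT value exceeded all other libraries (at most 3.67 CPM). The log2 fold changes of H2-Ea-ps, 4.13 (SE 2.13, adjusted p = 0.122) in iWAT and 5.29 (SE 1.78, adjusted p = 0.0211) in BAT, were -2.96 and 1.60 without those libraries and were not called. H2-T10, which overlaps the gene Gm7030, split the Control libraries: 40.8, 46.9 and 35.6 CPM in iWAT libraries 1, 4 and 5 against 7.31 and 6.55 CPM in libraries 2 and 3, and 30.2, 22.5 and 41.3 CPM in BAT libraries 1, 2 and 5 against 0.985 and 2.34 CPM in libraries 3 and 4. The Ai-α4KO libraries lay between 4.8 and 22.9 CPM, apart from 85.2 CPM in BAT library 5.

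The balance of H2-Eb1 to H2-Ab1 and the sum of H2-T9 and H2-T22 followed the same division. The FPKM ratio of H2-Eb1 to H2-Ab1 was 0.352, 0.312 and 0.395 in Control iWAT libraries 1, 4 and 5 and 0.858 and 0.867 in libraries 2 and 3, and it was 0.632, 0.575 and 0.49 in Control BAT libraries 1, 2 and 5 and 0.966 and 0.968 in libraries 3 and 4. The lowest Ai-α4KO ratio, 0.346, was that of BAT library 5, and the other 9 lay between 0.634 and 0.783. H2 genes differ in sequence between mouse strains, and a read from an allele unlike the reference can be lost or assigned to a neighbouring gene. The labels give no MHC haplotype, and its part in these values was not tested. Genotype differences in H2-T10 (log2 fold change -0.58, adjusted p = 0.354 in iWAT and 0.43, adjusted p = 0.701 in BAT) were smaller than these differences between libraries.

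**Figure D5:**
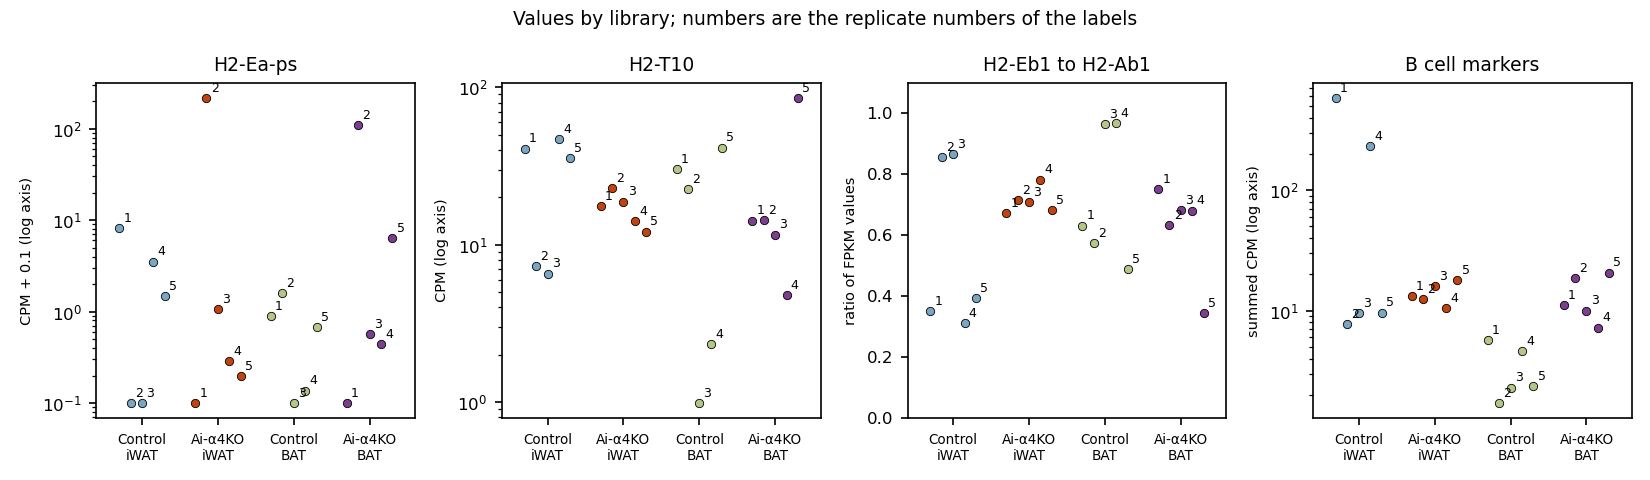
Value of each library, numbered by replicate, for H2-Ea-ps (CPM + 0.1, log axis), H2-T10 (CPM, log axis), the FPKM ratio of H2-Eb1 to H2-Ab1 (linear axis from 0) and the summed CPM of 10 B cell markers (log axis), by group. Ai-α4KO libraries 2 stand out for H2-Ea-ps, Control iWAT libraries 1 and 4 for B cell markers, and Control libraries form a high and a low set for H2-T10 and for the ratio.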

How the data were processed

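The genes, their classes and all lists were chosen with earlier results of these data known. Libraries were made with a stranded TruSeq mRNA kit and sequenced from both ends to 150 bp. STAR 2.5.3a, bcl2fastq 2 and mm10 are named in the submitters' processing notes, and the counting tool is not given in the sources used here. The authors deposited an expected count per gene and library, an estimate in which reads that fit several genes are divided, and an FPKM value, the count per transcript length and library depth; neither is normalized between libraries by composition. Expected counts were rounded, filtered with filterByExpr, scaled by TMM and tested with edgeR 4.0.16 (R 4.3.3, glmQLFit and glmQLFTest) within each depot over all genes, with Benjamini-Hochberg adjustment. Depots and the interaction were tested in a fit of all 20 libraries. CPM values were scaled by TMM over all libraries, and fold changes carry a prior count of the fit. A fold change against a group with at most 3 counts in every library is a lower bound; floors cover counting error only. Levels of different genes were compared in FPKM.

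Named genes were the components H2-K1, H2-D1, B2m, Tap1, Psmb8, Psmb9, Nlrc5, H2-Aa, H2-Ab1, H2-Eb1, Cd74 and Ciita and the 3 genes of each class with the largest change called in each depot; others were named after their values were seen. Alternatives were DESeq2 1.42.0, library size only, upper-quartile scaling, no filter on low counts, a minimum of 10 counts in each library, a threshold of 0.05 for the adjusted p, limma 3.58.1 on log2(FPKM + 1) and log2(FPKM + 0.1), a B cell score as covariate, a replicate block, 1 fit of all libraries, and leaving out libraries; a muscle score, summed overlapping pairs and leaving out both Ai-α4KO libraries 2 were added after the data were seen. Methods were tested on simulated data. Totals of 24023371 to 50384446 counts leave genes at 0 to a few counts without a usable fold change. The replicate numbers showed no general pairing of libraries: over the 4 pairings of groups, same-numbered libraries correlated between -0.452 and 0.244 in their deviations from the group means. Between iWAT and BAT, 2 of 5 numbers in each genotype correlated best with their own (Ai-α4KO 2 and 3, Control 1 and 5), a hint from the data and not from the labels. Whether the depots share mice was not settled, and the main fits of all 20 libraries treated the libraries as unpaired. The labels do not say that the libraries of a group come from separate mice, so p-values measure the spread between these libraries.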

Additional observations from a re-analysis of the deposited data

Results flagged for a closer look

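The 19 named genes were searched for a library set apart from the other 4 of its group by Dixon's test, in 76 groups of 5 libraries, and 7 were found; chance gives about 1 in 20 groups. Control iWAT library 1, one of the pair with high B cell markers, accounted for 4 of them, with H2-Aa at 919 CPM, Cd74 at 1001 CPM and Ciita at 24.3 CPM above the other Control iWAT libraries and H2-Q10 at 43.3 CPM below them. H2-D1 at 543 CPM in Control BAT library 3 was below its group. Cd74 at 941 CPM in Ai-α4KO BAT library 5 and H2-M3 at 34.8 CPM in Ai-α4KO iWAT library 3 were above theirs. The part of the B cells in the values of Control iWAT library 1 was not tested beyond the results given without it.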

How the results depend on the processing

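Under settings other than leaving out 1 library, 147 of 166 values of counts and sums and 421 of 453 values of single genes kept their direction and side of the threshold. In the rest, the class I genes higher in BAT numbered 5 with the B cell score as covariate, against 10. The marker sums of that score separated the genotypes in BAT. Class I genes lower in BAT numbered 2, and 1 by library size only, by limma on log2(FPKM + 0.1), with the B cell score, in 1 fit of all libraries or with the muscle score, and 0 with at least 10 counts in every library or by limma on log2(FPKM + 1). Class II genes lower in iWAT numbered 0, but 2 at an adjusted p below 0.05 and 1 in 1 fit of all libraries (H2-Ob). Members past the interaction threshold numbered 0, but 8 by DESeq2, 8 at an adjusted p below 0.05 and 1 with at least 10 counts in every library. In Control mice, with the B cell score, 5 class I and 7 class II genes were lower in BAT, against 11 and 11. The B cell marker sums separated the depots in Control mice as well (1.71 to 5.69 CPM in BAT, 7.73 to 578 CPM in iWAT). In Ai-α4KO mice, 2 class I genes were lower in BAT at an adjusted p below 0.05 and 0 without both Ai-α4KO libraries 2, and 2 class II genes without those libraries or with no filter. The log2 fold change of H2-D1 in iWAT turned to 0.078 with the B cell score and to 0.00093 without Control library 1, and the class I sum in iWAT to -0.023 without Ai-α4KO library 1. Leaving out 1 library at a time, the H2-D1 change in iWAT ranged from -0.29 to 0.00093, the class I sum in iWAT from -0.023 to 0.22, and the counts from 1 to 2 for class I lower in BAT, 0 to 1 and 1 to 4 for class I and class II lower in BAT than in iWAT in Ai-α4KO mice, and 0 to 2 for the interaction, where H2-Ob, H2-M2 or Ciita passed. The cause of these differences was not tested. Where no share of all genes is given, a change of these counts cannot be set apart from a change of the whole table.

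Library size alone moved the median log2 fold change of all genes to 0.13 in iWAT and 0.23 in BAT, and the genes of the whole table called in BAT to 3251 higher and 1265 lower, against 2614 and 1910; the medians of class I (0.62 and 1.25) and class II (1.33 and 2.76) stayed above these shifts. A replicate block, with numbers that showed no general pairing of the libraries, called 4 class I and 5 class II genes higher in iWAT and 8 and 9 in BAT. The shares of all genes in that fit are not given, so these counts cannot be set against them. Counts near 0 limit H2-M2, H2-Eb2, H2-Q7, H2-L and H2-Ea-ps.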
